A study of Mus musculus with 8 samples.

Results

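The subject here is 520 wide intronic peaks of RBM45 binding that appeared in both replicates of wild-type cells. They were chosen by width and position: a peak of the shared list had to span more than 100 bp in replicate 2, with its midpoint in a gene of the GENCODE M21 basic set (mm10) on the peak's strand and in no exon. They are 520 of 14397 intronic shared peaks (3.61%) and of 16399 shared peaks in all. The remaining 13877 intronic shared peaks, of 100 bp or less, are the comparison. Width picked the members and fold comes from the same pileup of reads, so width and fold are given as a description, with no test.

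The study mapped RNA bound by RBM45 by iCLIP in mHippoE-2, a line of transformed neurons from mouse hippocampus, in which UV light crosslinks protein to RNA before the protein is pulled down and its RNA sequenced. The series has 8 libraries in 4 groups of 2: iCLIP from Mettl3 knockout cells, size-matched input from Mettl3 knockout cells, iCLIP from wild-type cells and size-matched input from wild-type cells. All groups carried mouse Rbm45 with both a FLAG and an HA tag, brought in by lentivirus, so the protein pulled down with the HA antibody was introduced, not the cells' own. Both genotypes are the same line, grown in culture, and the labels do not say whether the knockout is 1 clone, nor whether the replicates were separate cultures. Only the knockout labels state the crosslinking, 150 mJ/cm2 given 2 times at 85% confluency. The values below come from the peak lists of wild-type iCLIP replicates 1 and 2 and from their shared list.

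RBM45 is an RNA-binding protein of the nervous system with several RNA recognition motifs, known from protein inclusions in motor neuron disease and frontotemporal dementia. Introns are removed from pre-mRNA in the nucleus, and crosslinks deep inside them mark contact with RNA that had not yet been spliced or not yet been degraded. The signals that define an intron lie at its ends, the 5′ and 3′ splice sites, which is why distance to them is given.

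A genome sequence was not used here, so sequence could be read only where an exon of the comprehensive GENCODE M21 set, mostly of a retained-intron transcript, covers the whole peak. That held for 17 members in 15 genes and for 682 of the narrower peaks. The 6 shown are those with the highest fold among them that lie outside untranslated regions. Each is the RNA strand of the peak, 5′ to 3′, with T for U. Capitals mark GAC, a triplet that purified RBM45 is known to bind, and this mark was chosen after the counts had been seen. Sequences are from GENCODE M21 transcripts (GRCm38, the same assembly as mm10).
Ide, chr19:37301670-37301775, minus strand: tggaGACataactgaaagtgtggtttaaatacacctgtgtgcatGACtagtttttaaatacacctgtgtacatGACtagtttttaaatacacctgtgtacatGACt
N4bp2l2, chr5:150650444-150650594, minus strand: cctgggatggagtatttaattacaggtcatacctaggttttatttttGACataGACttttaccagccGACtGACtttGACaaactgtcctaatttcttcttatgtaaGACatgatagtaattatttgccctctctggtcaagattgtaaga
Atad2, chr15:58111785-58111900, minus strand: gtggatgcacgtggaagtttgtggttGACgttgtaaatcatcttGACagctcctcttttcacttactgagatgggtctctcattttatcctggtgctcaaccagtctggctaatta
Lrrk1, chr7:66342489-66342642, minus strand: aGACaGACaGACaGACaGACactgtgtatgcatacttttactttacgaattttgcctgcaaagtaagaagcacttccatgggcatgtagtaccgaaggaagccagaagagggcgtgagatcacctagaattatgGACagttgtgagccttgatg
Tnfrsf12a, chr17:23676618-23676726, minus strand: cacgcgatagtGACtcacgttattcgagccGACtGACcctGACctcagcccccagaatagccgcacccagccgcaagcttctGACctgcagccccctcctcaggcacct
Numbl, chr7:27260885-27261031, plus strand: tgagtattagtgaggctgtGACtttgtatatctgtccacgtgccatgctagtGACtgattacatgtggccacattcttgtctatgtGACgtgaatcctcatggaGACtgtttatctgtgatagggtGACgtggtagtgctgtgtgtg

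All 6 hold GAC more than once. The peak in Ide, the insulin-degrading enzyme, has 4 GAC and is largely a tandem repeat, in which the 29 bases catgactagtttttaaatacacctgtgta occur 2 times in full. N4bp2l2 has 6 GAC, several of them within a short stretch. Atad2, a bromodomain ATPase of chromatin, has 2. Lrrk1, a leucine-rich repeat kinase, has 6, most of them in a simple repeat at the 5′ end. Tnfrsf12a, the cell-surface receptor for the cytokine TWEAK, and Numbl, an endocytic adaptor of the Numb family, have 5 each, in Tnfrsf12a partly close together and in Numbl spread along the peak.

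Over the 17 readable members GAC occurred at 33.7 sites per kb (80 in 2374 bases), against 17.7 per kb (449 in 25329 bases) over the 682 readable peaks of 100 bp or less. Windows of each member's own width, laid along the rest of the same covering exon, gave 14.7 per kb (581 in 39618 bases). The 3 Numbl members share 1 such exon, which was therefore laid with windows 3 times. It gave 41, 51 and 45 of the 291 windows, with 107, 112 and 109 GAC. Only the member at hand was left out, so these windows can hold the other Numbl members. Pooled window values, here and below, thus rest largely on that exon. Of these 291 windows 84.5% held at least 1 GAC, as did 16 of the 17 members (94.1%), so at these widths the number of sites separates members from windows more than presence does. Among 15 members with room for such windows, 12 had more GAC per kb than their windows and 3 had fewer, namely Veph1, 1 of the 3 Numbl peaks and Clasp1. Per member the density lay between 0 per kb in Veph1 and 75.9 per kb in Lsm7, with a median of 36.7. The 29 readable peaks of 100 bp or less with a fold of 5 or more in both replicates were in between, at 25.9 GAC per kb, so the density differed within the narrower peaks as well.

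DRACH, the consensus around m6A (A, G or T, then A or G, then AC, then A, C or T), includes many GAC sites and overlaps that count. It occurred at 32.0 sites per kb in members, at 22.7 per kb in the narrower peaks and at 20.7 per kb in the windows. The 29 narrower peaks with a fold of 5 or more in both replicates had 33.0 per kb, so this density was not particular to members. TTTTT was lower per kb, with 2.11 sites per kb in members against 6.95 per kb in the narrower peaks and 3.13 per kb in the windows, where overlapping sites each count. The members' value rests on 5 sites in 3 peaks, and by presence the order was the opposite, with TTTTT in 17.6% of members (6.19 to 41.0), 9.24% of the narrower peaks and 16.5% of the windows. GTGTGT stood at 2.11 sites per kb in members, 1.26 per kb in the narrower peaks and 5.05 per kb in the windows. Motifs were read on the peak's strand alone. These are 17 peaks inside exons of the comprehensive set, and whether the other 503 have the same composition was not tested.

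The members' peaks were 142 bp wide at the median in replicate 2 (quartiles 116 and 197, highest 1098 bp), and the narrower peaks 30 bp, which is the least width in the lists. The partner peak in replicate 1 had a median of 192.5 bp for members and of 30 bp for the narrower peaks. Sharing required an overlap of at least 50% of the replicate 2 peak, so a member could have no partner of the least width: the lowest was 53 bp, against 30 bp for the narrower peaks. It was over 100 bp for 447 of 520 members (86.0%, Wilson 95% interval 82.7 to 88.7) and for 1102 of 13877 narrower peaks (7.94%, 7.50 to 8.40). Most members were wide in both replicates, which the overlap required for sharing sets in part. The intervals cover counting error only, since peaks of 1 gene share its RNA, and the read depth behind the peaks is unknown.

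The fold of a peak is the authors' ratio of read pileup over background, and what served as background is not given. Members had a median fold of 10.6 in replicate 1 (quartiles 6.23 and 16.5) and of 6.96 in replicate 2 (4.79 and 10.6), against 1.95 and 1.92 for the narrower peaks. A fold of 10 or more in both replicates was reached by 149 of 520 members (28.7%, 24.9 to 32.7) and by 60 of 13877 narrower peaks (0.432%), where all intronic shared peaks gave 1.45%. Of the 209 intronic shared peaks at that fold, 71.3% were members, and 84.7% were over 100 bp in at least 1 replicate. Width did not guarantee height: the lowest member, in Zfp335, had folds of 5.47 in replicate 1 and 1.82 in replicate 2.

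**Figure D1:**
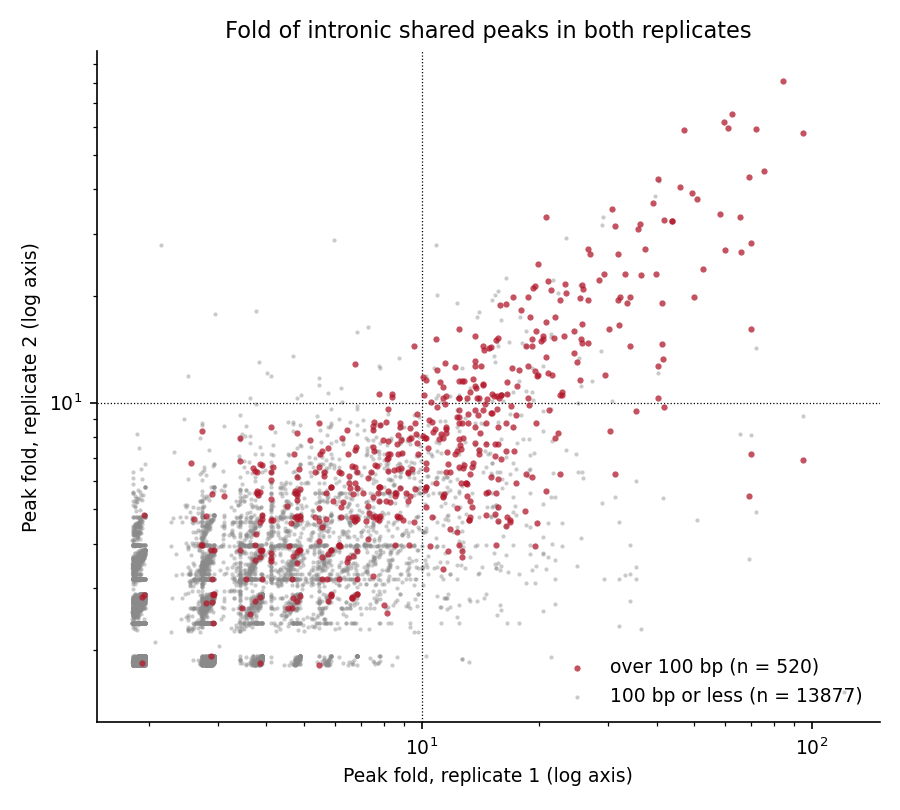
Fold over background of each intronic shared peak in replicate 1 (horizontal, log axis) and replicate 2 (vertical, log axis), with the 520 peaks over 100 bp in red, the 13877 of 100 bp or less in grey and dotted lines at a fold of 10. Most of the points in the upper right, with a fold of 10 or more in both replicates, are wide members (149 of 209).

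Folds were higher in replicate 1 for 411 of 520 members (79.0%) and for 68.8% of the narrower peaks. The folds of the replicates lay within 1.5 times of each other in 282 members, and replicate 1 was more than 2 times replicate 2 in 19.4% of members, while the opposite held in 5 members. The order of members by fold was similar in both replicates, with a Spearman rank correlation of 0.75 over 520 members against 0.404 over 13877 narrower peaks; the points share genes and libraries, and the narrower peaks span few distinct fold values.

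One replicate 1 peak could be the partner of several replicate 2 peaks, in which case its width and fold repeat. The 520 members had 492 distinct partners, and for 144 members (27.7%) the partner was also that of another intronic shared peak, against 3.42% of the narrower peaks. Among the members whose replicate 1 fold was more than 2 times that of replicate 2, 46.5% shared their partner (47 members). The widest gap, 94.8 against 6.88 in the smaller of the Calu peaks, is such a case. Over the 376 members with a partner of their own the median folds were 8.81 and 6.53, and 25.5% reached 10 in both replicates, against 0.321% of the narrower peaks counted the same way.

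Across width classes from low to high, the share with a fold of 10 or more in both replicates was 0.0803% at 30 bp, 0.738% at 31 to 50 bp, 2.31% at 51 to 100 bp, 13.3% above 100 and up to 150 bp, 29.1% above 150 and up to 200 bp, 45.9% above 200 and up to 300 bp and 88.0% above 300 bp (44 of 50). The share rose at each step, and classes this broad cannot show whether there is a break at 100 bp. At the edge of the rule, the 34 members no more than 3 bp over the limit had median folds of 5.62 in replicate 1 and 4.85 in replicate 2, and the 17 intronic shared peaks of 98 to 100 bp had 6.002 and 4.13. Those just inside with the highest fold were in Tmcc1 (1 bp over the limit, folds 72.0 and 59.3), Igf1r (1 bp over, 19.7 and 11.9) and Ube2e2 (3 bp over, 12.4 and 9.53). Those just outside were in Xkr6 (100 bp, 10.4 and 7.27), Ext1 (100 bp, 7.25 and 7.29) and St3gal5 (99 bp, 8.10 and 6.70).

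A wide intronic peak was also more often one that both replicates called. Of 1393 intronic replicate 2 peaks over 100 bp, 520 were in the shared list (37.3%, 34.8 to 39.9), against 4.49% of 308909 narrower ones. Of 2106 intronic replicate 1 peaks over 100 bp, 1218 were in it (57.8%, 55.7 to 59.9), against 3.72% of 344727. Above 300 bp the shares were 99.3% in replicate 1 and 86.2% in replicate 2. A wide peak meets another more easily by its size alone, and the part of size in these shares was not tested.

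**Figure D2:**
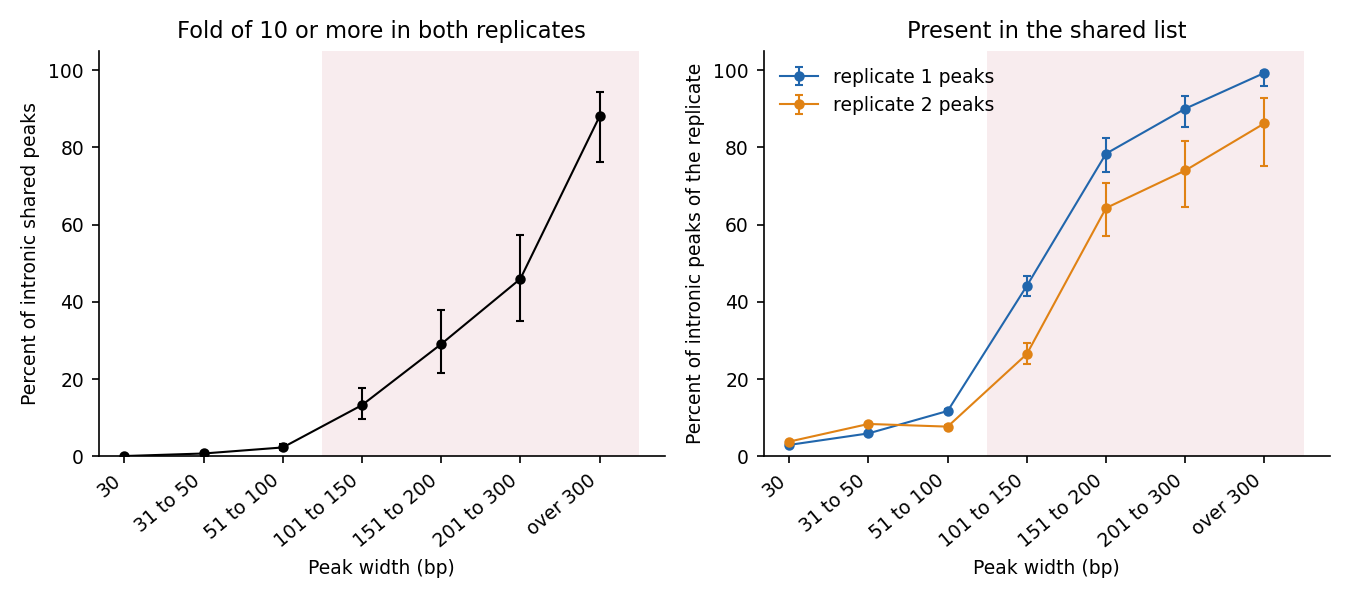
Left, percent of intronic shared peaks with a fold of 10 or more in both replicates, by width in replicate 2; right, percent of each replicate's intronic peaks present in the shared list, by width in that replicate. Points are shares with Wilson 95% intervals and the shaded area is over 100 bp; the left share reaches 88.0% and the right shares 99.3% and 86.2% above 300 bp.

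The members with the highest fold, ranked by the lower of both replicates, lay in 7 genes. The highest was in intron 8 of Arid5b, an ARID-domain regulator of chromatin (chr10:68117047-68117429, minus strand, 383 bp), with folds of 84.5 in replicate 1 and 80.7 in replicate 2, 1.013 kb from the 5′ splice site. The next was in the 124.5 kb last intron of Vti1a, a SNARE of transport between endosomes and Golgi (chr19:55528445-55528563, 119 bp), with 62.4 and 65.2. Both peaks had nearly the same height in the replicates.

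Prune2, a large gene active in nerve tissue, held 3 of the 10, side by side in its sixth intron (92.9 kb), with folds of 60.9 and 59.7, of 59.5 and 61.9, and of 46.9 and 58.8 in replicates 1 and 2. Tmcc1, a coiled-coil protein of the endoplasmic reticulum, had 72.0 and 59.3. Calu, which encodes the secretory-pathway calcium binder calumenin, had 94.8 and 57.7 in a last intron of only 1.73 kb, at a peak that overlaps an exon of the comprehensive set. Rbm6, a splicing regulator, had 75.4 and 44.99, and Dek, a chromatin-bound protein, had 69.1 and 43.3. A second Vti1a peak, with 45.8 and 40.5, closed the 10. In Calu, Rbm6 and Dek replicate 1 was the higher by more than 1.5 times.

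The widest members were not the highest. Kif26b, a kinesin family member, had the widest (chr1:178572368-178573465, 1098 bp), with folds of 27.0 and 26.2, and its partner was 634 bp. Tcf3, a bHLH transcription factor, had a peak of 921 bp with 59.9 and 27.0. Fbn1, which encodes fibrillin-1 of extracellular microfibrils, had 770 bp with 36.2 and 31.8. Gclc, the catalytic subunit of the first enzyme of glutathione synthesis, had 727 bp with 65.7 and 26.6 in an intron of 1.45 kb. Of these peaks, those in Kif26b and Fbn1 had similar folds in both replicates, and those in Tcf3 and Gclc were more than 2 times higher in replicate 1.

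The 520 members lay in 349 genes and 368 introns. Of the 5222 genes with an intronic shared peak 6.68% held a member, and 242 of the 349 held exactly 1. Another 107 genes held 2 or more, 278 members in all, and in 89 of these genes every member was in the same intron. Of the 220 genes with 10 or more intronic shared peaks 92 held a member. Members are themselves intronic shared peaks, so a gene with more of these has more chances to hold a member. The count was set against no expectation. Of the members 518 were in protein-coding genes (99.6%, against 98.1% of narrower peaks) and 2 in antisense genes.

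Ext1, a polymerase of heparan sulfate, held the most, with 6 members among its 48 intronic shared peaks, in 2 introns and over 235.9 kb. Their folds ran from 8.98 to 29.5 in replicate 1 and from 4.67 to 11.99 in replicate 2. Prune2, Mrps27 (a protein of the mitochondrial ribosome), Clasp1 (a microtubule plus-end protein) and Dcakd held 5 each, all in 1 intron per gene. In Clasp1 that was the last of 39 introns, where folds ran from 3.54 to 20.8 in replicate 1 and from 2.53 to 33.3 in replicate 2. So the members of 1 intron could differ from each other several-fold.

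Another 10 genes held 4 members each, Arid5b, Ubtd1, Fbn1, Gm47283, Gipc1, Uty, Cdk17, Csnk1g1, Nadk2 and Rgs12, within 1 intron for 9 of these 10 genes. Csnk1g1, a casein kinase, was the exception, with 2 introns. Cdk17, a cyclin-dependent kinase, had folds from 11.5 to 41.3 in replicate 1 and from 8.56 to 21.4 in replicate 2. Nadk2, the mitochondrial NAD kinase, was lower, at 2.80 to 8.78 and 2.72 to 8.73.

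Uty, the Y-linked homolog of a histone demethylase, and Gm47283 held the 8 members of chromosome Y, which is 1.54% of members against 0.0721% of narrower peaks (10 peaks). In Uty folds were 7.58 to 23.3 in replicate 1 and 4.79 to 21.5 in replicate 2. In Gm47283 they were 35.9 to 70.0 and 7.15 to 30.9, where 3 members share 1 replicate 1 partner. Gm47283 lies near the end of chromosome Y, in sequence known to have a copy on chromosome X, so reads of the 2 copies may not be separable there. Members on chromosome 5 made up 10.8% against 7.09% of narrower peaks, in 33 genes, with 4 in Rgs12, a regulator of G protein signalling, and at most 3 in any other.

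Members that lie within 1 kb of each other in the same gene formed 86 runs, which held 218 members: 54 runs of 2, 19 of 3, 12 of 4 and 1 of 5. A member had another member within 1 kb in 41.9% of cases (37.8 to 46.2). Narrower peaks, which are far more numerous, had another narrower peak within 1 kb in 21.1%. Counting intronic shared peaks of any width, the shares were 82.5% (79.0 to 85.5) of members and 22.0% of narrower peaks. For the members with a partner of their own the share was 75.8%, against 19.2%. The gap to the nearest such peak was short, 55 bp at the median over 429 members, with a lowest value of 23 bp.

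Runs spanned 596 bp at the median and members covered 75.2% of the span. The surroundings were also denser in peaks of the single replicates. Within 1 kb a member had a median of 7 other replicate 1 peaks and 5 other replicate 2 peaks, against 2 and 2 for a narrower peak. Whether neighbouring peaks are parts of 1 bound stretch that the peak caller divided was not tested.

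The longest run, in intron 6 of Prune2, spanned 2779 bp (chr19:17044634-17047412) with 2092 bp inside its 5 members. From 5′ to 3′ their folds were 59.5, 60.9, 46.9, 40.42 and 40.42 in replicate 1 and 61.9, 59.7, 58.8, 42.8 and 10.3 in replicate 2. The last of these members stands out as low in replicate 2 alone, and it shares the 610 bp replicate 1 partner of the member before it. Another 7 intronic shared peaks, of 100 bp or less, lay within the run or 1 kb beside it. The run lies 24.3 kb from the nearest splice site.

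Arid5b showed another form, 1 high member amid lower ones. From 5′ to 3′ its 4 members had folds of 8.55, 20.4, 84.5 and 9.58 in replicate 1 and 5.44, 15.4, 80.7 and 14.5 in replicate 2, over 1276 bp, with the first midpoint 0.28 kb from the 5′ splice site. In Gipc1, a PDZ scaffold protein, the member at the 3′ end was the highest, with 52.7 and 23.8, and the other members were at 12.65 or less in both replicates. Ubtd1 had 2 members at 41.9 in replicate 1, on a shared partner of 849 bp, which stood at 32.7 and 9.74 in replicate 2.

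**Figure D3:**
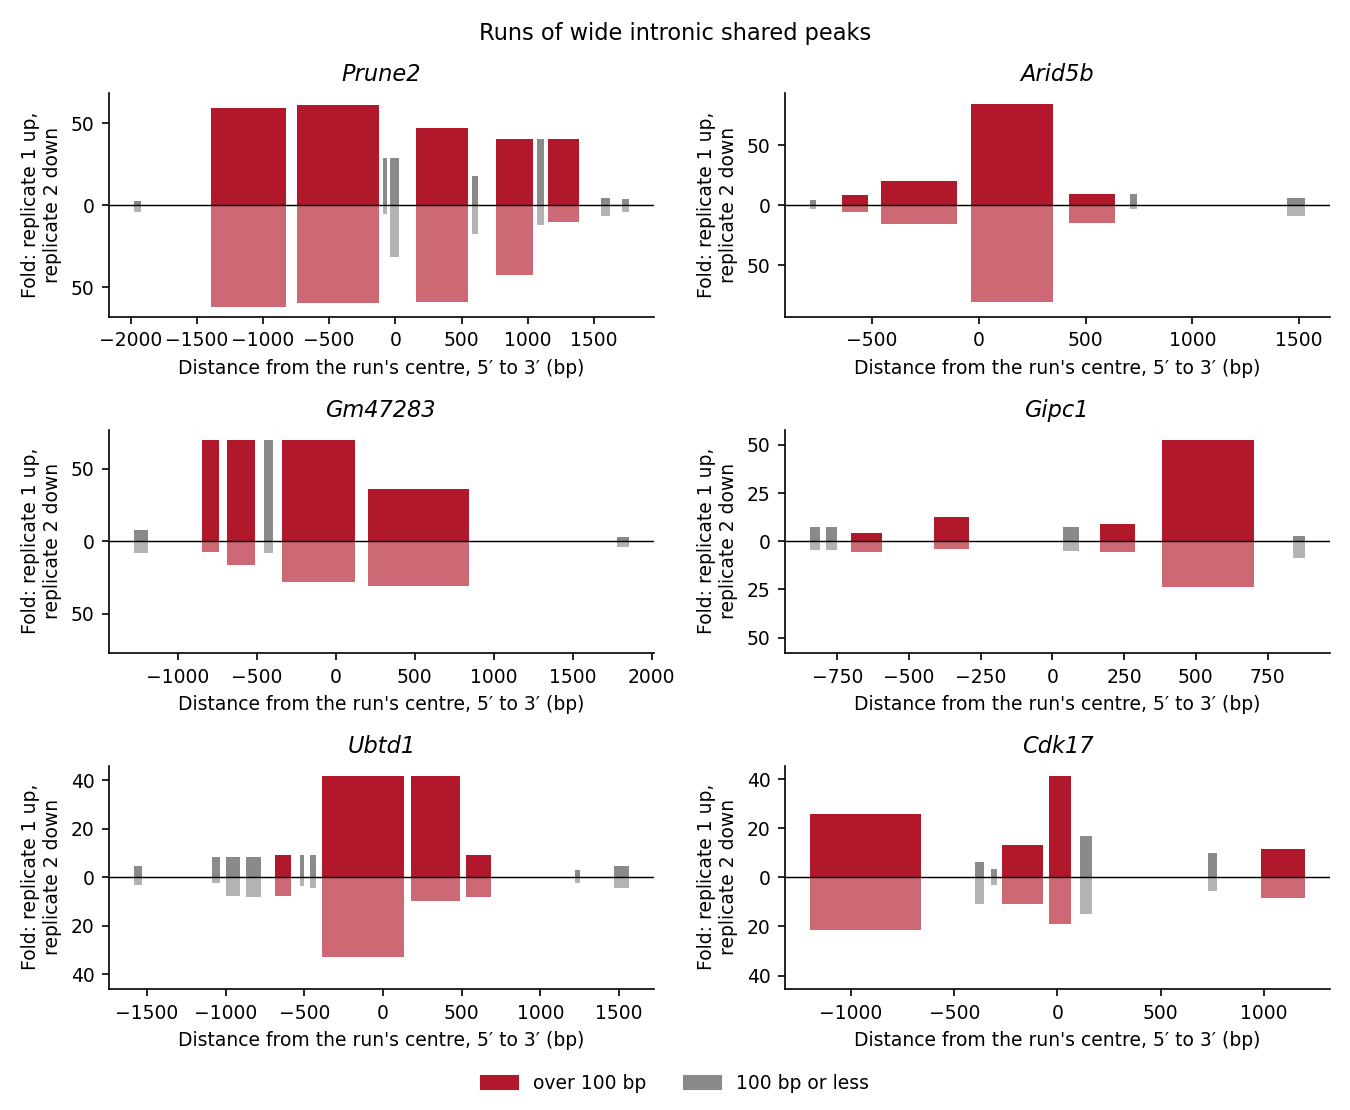
The 6 runs with the most members, ties by the highest replicate 1 fold, drawn as boxes over the distance from the run's centre (bp, 5′ to 3′), with the fold in replicate 1 upwards and in replicate 2 downwards, members over 100 bp in red and intronic shared peaks of 100 bp or less in grey. Prune2 has 5 members at 40.42 to 60.9 in replicate 1, whereas Arid5b has 1 member at 84.5 and 3 at 20.4 or less.

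Intron order was similar, with overlapping intervals of both classes for every kind of intron. For second introns, though, the members' interval lay wholly below the share of narrower peaks. First introns held 148 of 520 members (28.5%, 24.8 to 32.5) and 27.6% (26.9 to 28.4) of narrower peaks. Second introns held 11.9% (9.41 to 14.99) against 15.2% (14.6 to 15.8), introns from the third on 59.62% (55.3 to 63.7) against 57.2%, and last introns 8.08% (6.03 to 10.7) against 7.63%. With each intron counted once, first introns were 27.4% (23.1 to 32.2) of the 368 introns with a member and 22.8% of the 8488 introns with narrower peaks only.

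Members lay in introns of 13.4 kb at the median (interval of the median 10.4 to 16.7, quartiles 4.04 and 39.0), against 17.2 kb for narrower peaks (16.6 to 17.9, quartiles 4.31 and 57.1). Introns over 50 kb held 21.9% (18.6 to 25.7) of members against 27.9%, and genes over 500 kb held 2.12% (1.19 to 3.75) against 8.47%. The direction depends on what is counted. With each intron counted once, the introns with a member were the longer ones, at 12.7 kb against 8.65 kb for introns with narrower peaks only. With each gene counted once, the median gene length was 91.2 kb for genes with a member and 54.8 kb for genes without. An intron or gene counts as having a member if any of its peaks is wide, so many peaks give more chances. The part of peak number in these differences was not tested. Within first introns the medians per peak were 29.8 kb for members and 37.6 kb for narrower peaks. Neither width nor the lower fold followed intron length among members, with a Spearman rank correlation of -0.0022 and 0.0023 over 520 peaks.

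**Figure D4:**
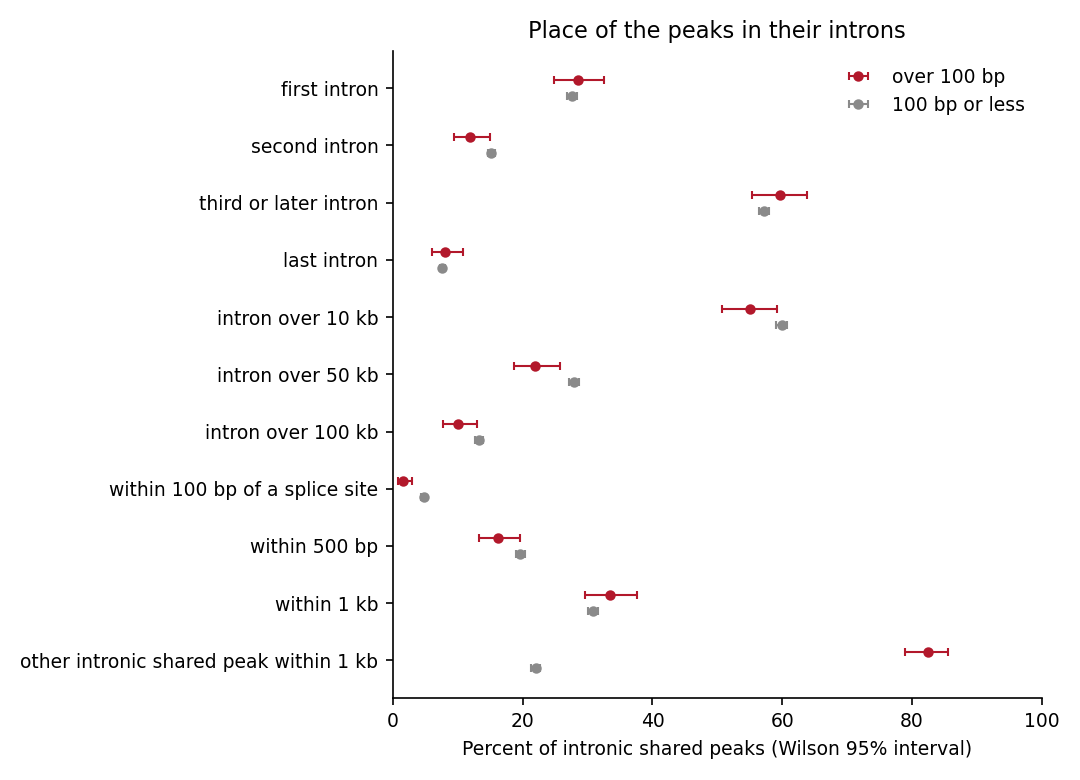
Percent of intronic shared peaks (horizontal axis) in each kind of intron and at each distance, with members over 100 bp in red above those of 100 bp or less in grey, and Wilson 95% intervals as bars. Intervals overlap for every order of intron, and the widest gap is in having another intronic shared peak within 1 kb, 82.5% against 22.0%.

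The midpoints of members were rarely next to a splice site. The midpoint lay within 100 bp of one in 8 of 520 members (1.54%, 0.782 to 3.01) and in 4.71% of narrower peaks. The midpoint of a wide peak cannot come as near to the end of an intron unless the peak itself overlaps the exon. The peak reached an end of its intron in 6 of 520 members (1.15%, 0.530 to 2.49) and in 0.789% of narrower peaks. Measured from the nearest edge within 1 kb, the share of members was 36.9% (32.9 to 41.2) against 31.2%. From the midpoint it was 16.2% against 19.6% within 500 bp and 33.5% (29.5 to 37.6) against 30.8% within 1 kb, so no deficit was detectable at the longer distance. The median distance to the nearest splice site was 2.32 kb (1.80 to 2.91) for members and 3.04 kb (2.86 to 3.18) for narrower peaks.

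Among these 8 members were those in Cep89, Lsm6, Tnfrsf12a, Nadk2, Zfp335, N4bp2l2 and Pcyt1a, named here because so few lay that close. Cep89, a centrosomal protein, had its midpoint 7 bp from the 3′ splice site, with folds of 34.1 and 19.9, and Lsm6, part of the U6 snRNP, had its own 47 bp from that site, with 31.9 and 19.4. In 5 of the 8 the near site was the 3′ one. Members were nearer to the 5′ than to the 3′ splice site in 57.3% of cases (53.0 to 61.5), against 52.2%. Over 5 equal parts of the intron from its 5′ end, their shares were 20.6%, 25.2%, 20%, 15.4% and 18.8%, and those of narrower peaks 22.4%, 20.4%, 19.1%, 19.1% and 19.0%. The second of these parts was the one in which the members' interval (21.7 to 29.1) lay wholly above the share of narrower peaks, and the fourth (12.5 to 18.7) wholly below it.

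**Figure D5:**
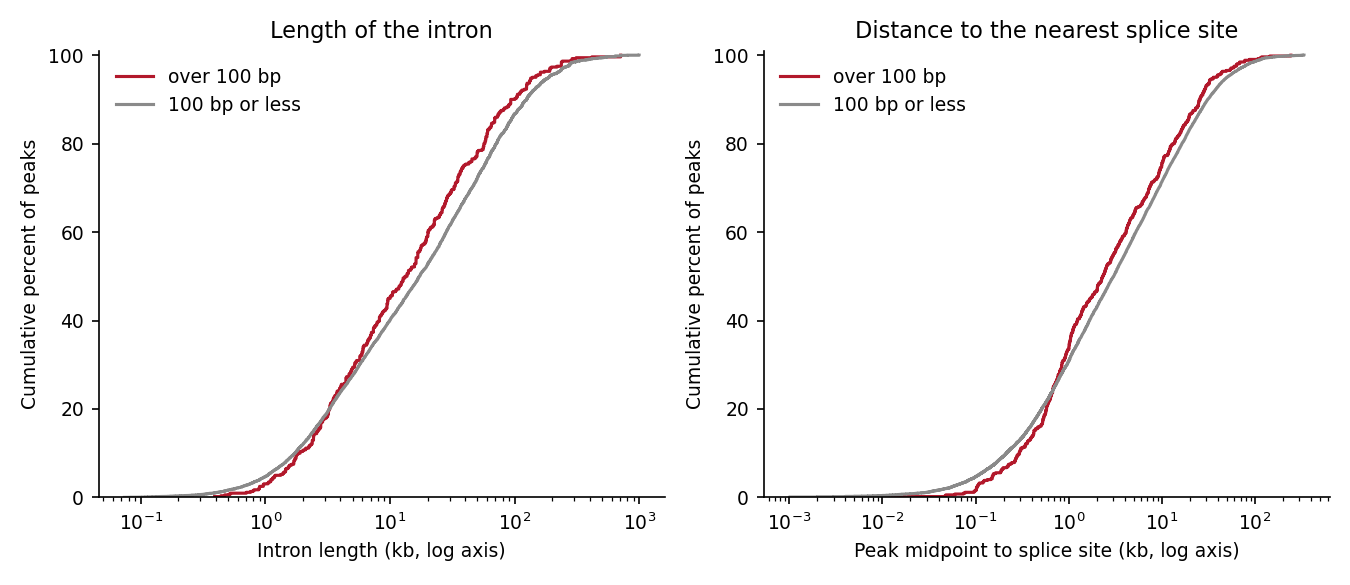
Cumulative percent of intronic shared peaks by length of their intron (left) and by distance of the midpoint from the nearest splice site (right), both in kb on a log axis, for members over 100 bp (red) and peaks of 100 bp or less (grey). The medians are 13.4 against 17.2 kb and 2.32 against 3.04 kb, and under 0.1 kb the line of the members is the lower one.

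Annotation at the peaks differed little between the classes in the shared list. An exon of the comprehensive set, which includes retained introns and minor isoforms, was overlapped by 27 members (5.19%, 3.59 to 7.45) and by 5.13% of narrower peaks. In the lists of single replicates the shares stood apart: 7.64% (6.59 to 8.86) of intronic peaks over 100 bp against 4.38% of narrower ones in replicate 1, and 7.90% (6.59 to 9.43) against 4.16% in replicate 2. With introns defined by the comprehensive set itself, 1.99% (1.08 to 3.62) of members against 0.911% of narrower peaks overlapped such an exon. A gene on the other strand was overlapped by 4.42% against 5.22%, and an exon on the other strand by 1 member (0.192%, 0.034 to 1.08) against 1.11%. No member overlapped a gene of a small RNA, which allows a share of up to 0.577% (3 counts of 520), and 0 of 13877 narrower peaks did. The same interval stood on both strands in the lists for 6 members, and the sources used here do not say how the authors gave peaks a strand.

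By gene lists, members were spread over many functions; the lists were drawn up with earlier results of these data known, so their counts are no independent evidence. Of the RNA-binding and splicing genes with an intronic shared peak, 5 of 25 held a member: Atxn2 and Tnrc6c (3 each), Rbm6 (2), Msi2 and Atxn1 (1 each). Of the kinases and growth factor receptors 9 of 41 did, led by Csnk1g1 (4), Igf1r and Nlk (3 each) and Map2k5 and Prkca (2 each). Igf1r, the receptor of insulin-like growth factor 1, reached 19.7 and 11.9, and Map2k5, a kinase of the ERK5 pathway, 28.4 and 22.2. Of the transcription factors 12 of 51 held a member, led by Bach2 (3), Meis2 and Glis3 (2 each) and Zeb1 and Nfatc1 (1 each). Meis2, a homeodomain protein, reached 20.8 and 13.4. The 3 shares were 20%, 22.0% and 23.5% of genes, where 6.68% of all genes with an intronic shared peak held a member. These 3 lists had 134, 306 and 387 intronic shared peaks, and a gene with more peaks has more chances to hold a member. The part of peak number in these shares was not tested. Per peak the shares of members were 7.46%, 6.21% and 4.13%, against 3.61% of all intronic shared peaks.

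In the other lists with a member the share of genes was lower than in these 3, at 3.45% to 13.5%. Over all genes with an intronic shared peak it was 6.68%. Heparan sulfate and extracellular matrix genes had 4 of 33, namely Ext1, Fbn1, Sdc4 and Hs2st1, with 12 members among 164 peaks (7.32%). Vesicle transport and secretory genes had 6 of 45, led by Vti1a (3) and Calu and Tbc1d5 (2 each). Microtubule and actin genes had 5 of 37, among them Clasp1 (5), Kif26b (2) and Myh9 (1), the heavy chain of a non-muscle myosin. Chromatin regulators had 2 of 36, Arid5b among them. Signalling genes of the TGF-beta, Wnt and Hippo pathways had 3 of 37 (Lrp1, Tgfbr2 and Lats1), ion channels 2 of 25 (Cacna1c and Itpr1), and synaptic adhesion genes 1 of 29 (Ptprk). Per peak the shares were 3.56% in the vesicle list, 3.73% in the microtubule and actin list and 4.67% in chromatin regulators. They were 1.74% in the signalling list, 1.59% in ion channels and 0.595% in synaptic adhesion genes, against 3.61% of all intronic shared peaks.

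No member was found in 4 lists: m6A writers, erasers and readers (0 of 9 genes, 30 intronic shared peaks), axon guidance (0 of 25, 97 peaks), cadherins and catenins (0 of 17, 86 peaks) and nuclear long non-coding RNAs (0 of 3, 9 peaks). Over all genes with an intronic shared peak 6.68% held a member, and 3.61% of intronic shared peaks were members, so nothing is read from a count of 0 in lists this small. Of 37 markers of neurons, progenitors, glia and endothelium, 7 had an intronic shared peak and so could hold a member. Of these 7, Flt1, an endothelial receptor, held 1 among 12 intronic shared peaks, where 6.68% of all genes with such a peak held one. Of the pan-neuronal markers 8 of 9 had a peak in replicate 1 and 7 of 9 in replicate 2, and 3 had an intronic shared peak. Of the 273 replicate 1 peaks in these markers 212 were in Map2. Peaks were also common in the other classes, in replicates 1 and 2: progenitor 4 and 4 of 5, astrocyte 5 and 5 of 6, oligodendrocyte 4 and 5 of 6, microglia 5 and 4 of 5, endothelium 4 and 6 of 6. Holding a peak thus did not separate the cell types.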

How the data were processed

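Wild-type iCLIP peaks were called per library, as the deposited peak names show. The submitters' processing notes name mm10 as the build and, with no role or order, deepTools 3.2.1, HOMER 4.11.1, bedtools 2.25.0, MACS2 2.1.1.20160309 and Novoalign 3.09.00. The sources used here do not give settings, the peak caller's control or the way strand was assigned. Each deposited peak carries the authors' score, a fold, which is a ratio of pileup to background, and the −log10 p of the peak caller, with a p threshold of 0.005 in the peak names. The deposited shared list pairs replicate 2 and replicate 1 peaks that overlap by at least 50% of the replicate 2 peak, with the bases of overlap.

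Here, repeated lines were dropped and peaks placed by midpoint on the GENCODE M21 basic set. Where genes on the strand overlapped, the protein-coding gene of the shortest span was taken, a choice made after a value had been seen. Shares carry Wilson 95% intervals and medians order-statistic intervals, and nothing was tested. Placement was checked on simulated data. The members, motifs and gene lists were chosen with earlier results of these data known. Genes were named by rule: the 10 members of highest lower fold, the 5 widest, the 10 genes with the most members with ties, the edge of the width rule, up to 5 genes per list, and up to 6 readable sequences. Some genes and 1 gene list that the rule names are not reported here. Alternatives were other width thresholds, gene sets, overlap and −log10 p minimums, single replicates, and counting each intron or partner once.

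A deposited count table (featureCounts 1.6.3 per its file header) has 8 library columns whose names match no sample label, so they were not used and the planned comparison of knockout with wild type on members was not run. Depth is unknown. The tools used were pandas 2.3.3, numpy 2.4.6, scipy 1.17.1 and matplotlib 3.10.9 under Python 3.11.15.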

Additional observations from a re-analysis of the deposited data

How the results depend on the processing

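Of 148 values under alternatives 116 stayed within the interval of the reported value or within 1.5 times of a count. Many of these could not move. All 14397 intronic shared peaks had exactly 1 replicate 1 partner, so taking the partner of lowest fold changed nothing. Other alternatives alter only the comparison peaks or only the distance to splice sites. The count of 116 is therefore no measure of robustness. With thresholds of 75, 150 and 200 bp there were 868, 241 and 124 members in 546, 194 and 104 genes. The share with a fold of 10 or more in both replicates was then 19.0%, 46.5% and 62.9%, the share with a wide partner 70.0%, 96.7% and 100%, and the share of replicate 2 peaks in the shared list 16.1%, 70.9% and 78.5%. Another member within 1 kb was found for 28.2% at 150 bp and 24.2% at 200 bp. With a −log10 p of at least 6 in both replicates 35.1% had the fold and 90.3% a wide partner. With 50% of each peak covered 82.3% had a wide partner and 34.2% another member within 1 kb. On the comprehensive gene set 1.99% overlapped an exon, against 0.911%.

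Leaving out replicate 1 or replicate 2, so that every intronic peak over 100 bp of the other counts, gave 1393 to 2106 members in 935 to 1243 genes, exon overlap of 7.64% to 7.90% (narrower peaks 4.16% to 4.38%), and another such peak within 1 kb for 27.0% to 35.3%, below the 70.2% to 73.6% of narrower peaks in those denser lists. Added after seeing the data, replicate 1 peaks gave a shared share of 57.8%, and members with a partner of their own a wide partner in 80.6%. Intron length changed side with each intron counted once (12.7 kb against 8.65 kb). Exon overlap changed side in 5 alternatives and first introns in 5. The widest of these gaps was in exon overlap with a −log10 p of at least 6 in both replicates. There it was 5.66% (3.83 to 8.28) of members against 7.68% of narrower peaks. No paired analysis was possible because the result comes from no test between groups.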
